A study of Homo sapiens with 9 samples.

Results

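Loss of FANCL was compared with wild type in K562 cells that had received PMA, by the positions at which γH2AX was called. The comparison used 4 of the 9 samples of the series: FANCL knockout (KO) with PMA, replicates 1 and 2, and wild type (WT) with PMA, replicates 1 and 2. They were chosen by genotype and treatment alone. Their region lists were compared on chromosomes 1 to 22, as regions called in both replicates of one genotype and in neither of the other, and as covered length per bin of 100 kb. Both genotypes were the K562 line and both received 5 nM PMA for 72 h, so the groups differ in the FANCL genotype only, as far as the labels go. The labels do not say how FANCL was knocked out, whether the KO line is 1 clone, or whether replicates were separate cultures. The spread behind each p-value here is therefore that between libraries, and it may be technical alone. The mock-treated libraries, 2 of KO and 2 of WT, are used for a side-by-side look, and the remaining sample is an input library of WT mock cells.

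γH2AX is the histone variant H2AX phosphorylated near its end by the kinases ATM, ATR and DNA-PK, and it spreads along the chromatin to both sides of a DNA break or a stalled replication fork. FANCL is the ubiquitin ligase subunit of the Fanconi anaemia core complex, which attaches ubiquitin to FANCD2 and FANCI during the repair of DNA crosslinks. People who inherit loss of this pathway develop bone marrow failure. K562 is a human myelogenous leukaemia line that can take on erythroid or megakaryocytic features, and PMA, a phorbol ester that activates protein kinase C, drives it towards the megakaryocytic side. The study asked what FANCL loss does to DNA repair and to the differentiation of blood cells.

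Depth in the KO libraries was 18.3 and 16.0 M (mega) tags, and in the WT libraries 27.2 and 17.0 M tags. The tag threshold of a 500-bp window followed the depth, at 7.12 and 7.5 tags per 10 M in KO and 5.89 and 7.07 in WT. The lists hold no measurement of FANCL, so the genotype rests on the labels. The input is of WT mock cells, so it allowed a look at the WT line only, and the identity of the KO line was not checked. Input tags inside called regions averaged 4.47 per kb, scaled to 10 M tags. The densest 1-Mb window with at least 20 regions, on chromosome 22 from 23000001 to 24000000, was 6.65 times as dense. The windows of chromosome 9 from 133000001 to 134000000 and from 134000001 to 135000000 stood at 18.7 and 17.5 input tags per kb. K562 is known for an amplified fusion of BCR on chromosome 22 with ABL1 on chromosome 9. All regions were called against this single WT mock input, so a difference in copy number between the genotypes cannot be told apart from a difference in γH2AX. Nor can more γH2AX per cell be told apart from more cells with γH2AX, or from a more efficient immunoprecipitation.

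The KO libraries held longer regions than the WT libraries, while the numbers of regions overlapped. KO lists held 42512 and 37561 regions and WT lists 42356 and 36067, a difference smaller than the spread within each genotype (two-sided exact permutation p = 0.667). Covered length was 42.3 and 34.3 Mb in KO and 31.3 and 24.8 Mb in WT, a log2 difference of 0.45, which turned to −0.52 among regions at 6-fold over input or more. Without chromosome 19 the difference was 0.21 and the groups overlapped (exact permutation p = 0.667, two-sided), and without WT replicate 2 it was 0.28. KO lists held 3828 and 2788 regions of 2 kb or longer and WT lists 1224 and 719, a 3.48-fold difference in the geometric means. Those of 5 kb or longer were 661 and 393 in KO and 82 and 42 in WT, 8.68-fold by the same measure. At 6-fold over input or more, the log2 difference in regions of 2 kb or longer shrank from 1.80 to 0.91. Among all called regions, the longest were thus the ones in which the genotypes were furthest apart.

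The share of covered length that lay in regions of at least 2 kb was 34.2 and 28.8% in KO and 11.7 and 8.54% in WT (31.5% ± 3.82 and 10.1% ± 2.20, SD, n = 2 each). Both KO libraries lay above both WT libraries. Regions of exactly 500 bp, the smallest the caller returned, made up 49.5 and 52.4% of the KO lists and 57.9 and 63.0% of the WT lists. At 6-fold over input or more that difference shrank from −9.53 to −2.24 percentage points and the groups overlapped (exact permutation p = 0.667). The 90th percentile of region size was 1875 and 1682 bp in KO and 1280 and 1088 bp in WT. The median region was 626 and 500 bp in KO and 500 bp in both WT libraries, which did not separate the groups. The long upper tail differed, while the typical region was near the smallest size in both genotypes.

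KO regions were also packed more closely. Regions covered 6152 and 5916 bins of 100 kb in KO and 7360 and 7483 in WT. The smallest number of bins that held 50% of the covered length was 571 and 543 in KO and 1018 and 1059 in WT, or 9.28 and 9.18% of the covered bins in KO and 13.8 and 14.2% in WT. The median gap between neighbouring regions was 3.38 and 3.88 kb in KO and 5.10 and 6.74 kb in WT. More called length thus lay in fewer places in KO cells. The authors' fold over input was lower in KO, with a median per library of 4.07 and 4.26 against 4.79 and 4.75. For every measure in these 3 paragraphs whose groups did not overlap, the exact permutation test (two-sided) gave p = 0.333, the smallest that 2 libraries against 2 allow.

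**Figure D1:**
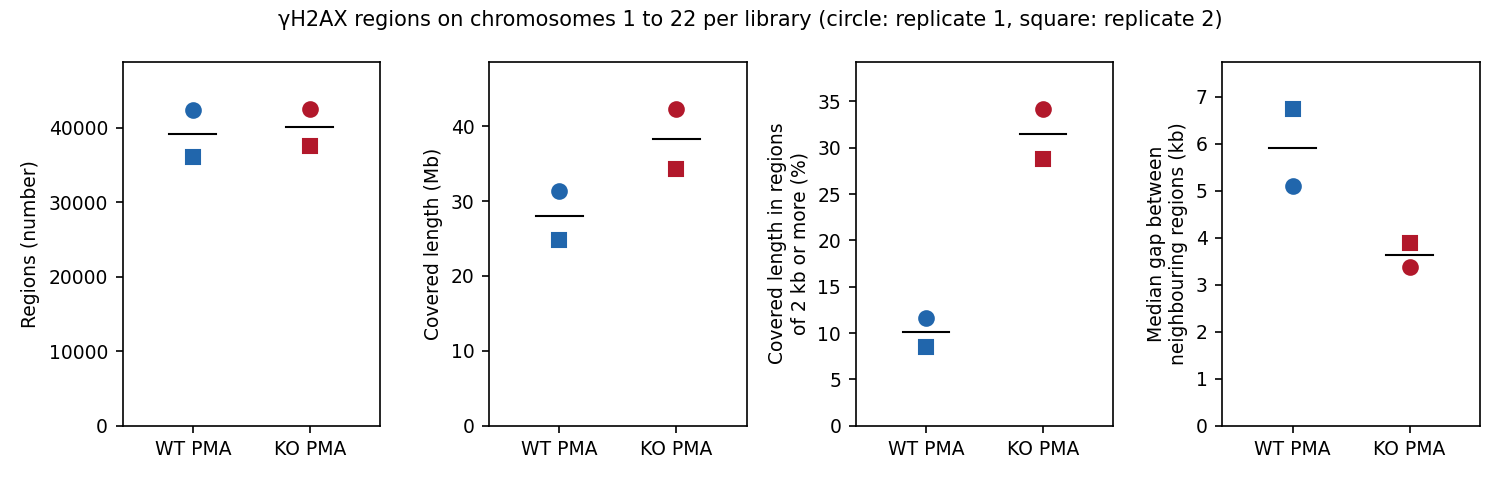
Number of γH2AX regions, covered length (Mb), share of covered length in regions of 2 kb or more (%) and median gap between neighbouring regions (kb) on chromosomes 1 to 22, with 1 point per library of WT or KO cells after PMA and a line at the mean of 2 libraries. The numbers of regions overlap, whereas both KO libraries lie above both WT libraries in covered length and in the share in long regions (34.2 and 28.8% against 11.7 and 8.54%) and below them in the gap, but without chromosome 19 covered length overlaps.

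Merging the 4 lists gave 109711 regions, of which 9410 (8.58%) were called in both KO libraries and in neither WT library, and 6183 (5.64%) in both WT libraries and in neither KO library. A further 2404 (2.19%) were called in all 4 libraries. The other 91714 were called in other combinations of libraries. Replicates shared more than genotypes did: the Jaccard index over base pairs was 0.266 between the KO libraries, 0.130 between the WT libraries and 0.0577 to 0.0678 between libraries of different genotype. Among merged KO regions called in both replicates, 61.8% were absent from both WT lists, and among those of WT 56.9% were absent from both KO lists. These shares follow from the way the sets were chosen and were not tested.

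KO-only regions were longer than WT-only regions, and shared regions were longer than both. The median was 1251 bp for KO-only, 955 bp for WT-only and 2586 bp for regions called in all 4 libraries. At least 2 kb was reached by 26.8% of KO-only regions and 10.7% of WT-only regions, and at least 5 kb by 4.09% (385 regions) and 0.307% (19 regions). KO-only regions covered 16.6 Mb and WT-only regions 7.36 Mb. KO-only regions lay closer together: the median gap to the next member of the same set was 7.25 kb for KO-only and 21.4 kb for WT-only regions. Of the KO-only regions, 50% lay in 71 windows of 1 Mb against 160 windows for WT-only. Gaps shrink as a set grows, and the KO-only set was the larger. The 2404 regions called in all 4 libraries had a median gap of 22.3 kb, and 50% of them lay in 67 windows. Clustering was therefore not particular to the KO-only set. The most crowded 1-Mb window of each set held 119 KO-only and 82 WT-only regions. Input tags differed as well: KO-only regions held 5.27 and 5.12 input tags per kb, by the extent called in KO replicate 1 and 2, and WT-only regions 3.46 and 3.64, by that in WT replicate 1 and 2. By chromosome, called regions held 12.4 on chromosome 22, 5.79 on chromosome 9, 4.87 on chromosome 19 and 3.49 on chromosome 18. The values of the sets pool all chromosomes, including the dense windows of chromosomes 22 and 9. The part of copy number or base composition in the sets was not tested.

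The tag thresholds touched the sets unequally. Measured by tag density, 0.191% of KO-only regions in KO replicate 1 fell below the threshold of the deepest library, WT replicate 1, and 7.57% below that of WT replicate 2. Of WT-only regions in WT replicate 1, 49.8% fell below the threshold of KO replicate 1 and 63.2% below that of KO replicate 2. In WT replicate 2 these shares were 23.1 and 29.1%. By this mean density over the called width, many WT-only regions lay below the KO thresholds, while few KO-only regions lay below the WT thresholds. Both KO thresholds were above both WT thresholds, so this imbalance was in part fixed by the thresholds. The caller judged windows of 500 bp, so a region below a threshold by its mean can still hold a window above it. With one tag threshold for all libraries, there were 7563 KO-only and 1652 WT-only regions. When lists were limited to 6-fold over input or more, the order turned, to 720 KO-only and 1097 WT-only regions with medians of 796 and 794 bp.

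The sets lay on different chromosomes. Chromosome 19 held 2010 KO-only regions, 21.4% of the set, and 30 WT-only regions, 0.485% of theirs. Chromosome 17 held 987 and 110, chromosome 16 held 893 and 146, chromosome 11 held 712 and 243, and chromosome 22 held 306 and 47. In the other direction, chromosome 3 held 174 KO-only and 650 WT-only regions, chromosome 5 held 137 and 495, chromosome 2 held 236 and 540, and chromosome 18 held 14 and 152. Chromosome 1 was shared, with 1066 and 1209. The largest WT-only count thus stood on a chromosome that was also second in KO-only regions, whereas chromosome 19 was almost empty of WT-only regions. Chromosome 1 also held the most merged regions, 15549, of which 6.86% were KO-only and 7.78% WT-only. Over all merged regions these shares were 8.58 and 5.64%. KO-only regions were 30.6% of the merged regions on chromosome 19, 16.2% on chromosome 16, 15.3% on chromosome 17 and 13.7% on chromosome 22. WT-only regions were 10.6% on chromosome 3 and 9.39% on chromosome 18.

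KO-only counts went with the number of genes on a chromosome more closely than WT-only counts did, as a description over chromosomes. Per 100 protein-coding genes in the RefSeq table, KO-only regions numbered 138.5 on chromosome 19, 104.6 on chromosome 16, 84.4 on chromosome 17, 67.8 on chromosome 22, 5.19 on chromosome 18 and 0.296 on chromosome 13. WT-only regions numbered 65.9 on chromosome 6, 61.0 on chromosome 3, 58.7 on chromosome 1, 56.3 on chromosome 18, 2.81 on chromosome 14 and 2.07 on chromosome 19. Gene number alone did not order the chromosomes, since KO-only regions per 100 genes still ran from 0.296 to 138.5. Over the 22 chromosomes, which share all libraries and differ in length, Spearman's rho with the number of genes was 0.755 for KO-only and 0.513 for WT-only counts. Over the 21 chromosomes with promoter sequences, rho between the median GC content of promoters and KO-only regions per 100 genes was −0.012. These medians ran only from 60.3 to 67.0%, and chromosomes 19 and 3 both stood at 63.0%. They describe promoters and not the called regions, so this rho cannot tell whether base composition goes with the KO-only counts.

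**Figure D2:**
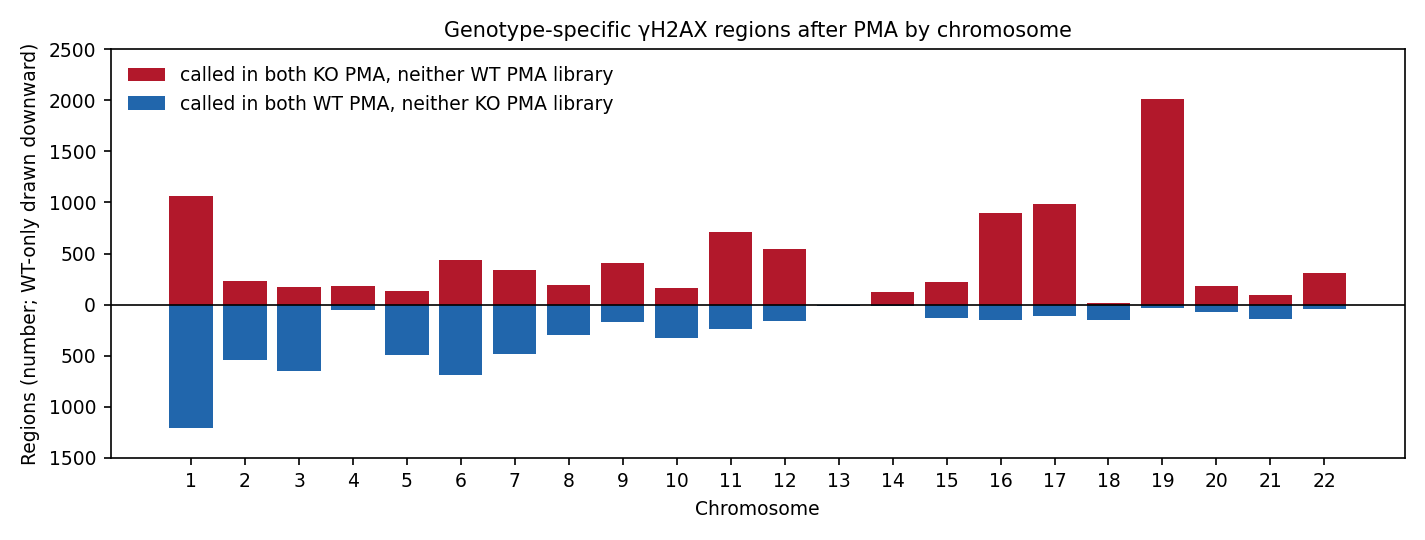
Number of KO-only and WT-only γH2AX regions after PMA on each of chromosomes 1 to 22, with bars for KO-only regions drawn upward and for WT-only regions downward. Chromosome 19 holds 2010 KO-only and 30 WT-only regions, whereas chromosome 3 holds 174 and 650.

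Along the chromosomes, some stretches held mostly one set and others held both. Windows of 5 Mb with at least 20 genotype-specific regions numbered 204, and in 42 of them at least 90% of those regions were KO-only, in 58 at least 90% were WT-only, and 104 lay between. On chromosome 19 the windows from 1, 10000001, 15000001 and 45000001 held 478, 289, 276 and 417 KO-only regions against 2, 2, 4 and 1 WT-only regions. These 4 windows held 846 to 1138 merged regions. The window from 30000001 held 7 and 8 among 209 merged regions, so chromosome 19 was not uniformly KO-rich. The window from 20000001 held none of either set, but only 23 merged regions were called there in the PMA libraries. Its counts therefore say little about genotype. These windows and those of the next paragraph were picked after their values were seen.

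Other chromosomes held windows rich in either set. On chromosome 16 the first 5 Mb held 344 KO-only and 3 WT-only regions. On chromosome 11 the window from 60000001 held 222 and 0 and the next 229 and 4. On chromosome 1 the window from 25000001 held 235 and 14 and that from 155000001 held 144 and 6, while those from 165000001, 210000001 and 245000001 held 2 and 62, 0 and 80, and 0 and 107. Chromosome 6 was WT-rich at its start, with 7 and 65 in the first window and 1 and 75 from 20000001, and KO-rich from 30000001, with 133 and 9. On chromosome 3 the windows from 1 and 30000001 held 1 and 91, and 0 and 102. Not all windows of chromosome 1 held mostly one set: that from 5000001 held 31 and 38, and that from 35000001 held 31 and 19. On chromosome 6 the window from 40000001 held 137 and 32.

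**Figure D3:**
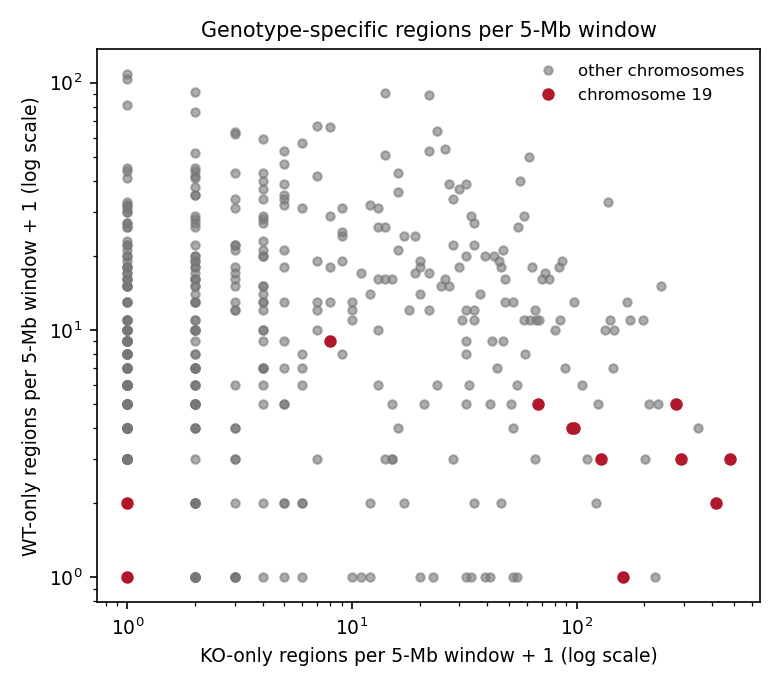
WT-only against KO-only regions in each 5-Mb window, 1 point per window, both as the count plus 1 on log axes, with the windows of chromosome 19 in red. Of the windows with at least 20 specific regions, 42 lie near the KO-only axis and 58 near the WT-only axis, at 90% or more of one set, and 104 lie between, while the 4 windows of chromosome 19 with most KO-only regions hold 276 to 478 of them and 1 to 4 WT-only regions.

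In the test across 9474 bins of 100 kb, 1491 bins (15.7%) were higher and 2092 (22.1%) lower in KO (limma on log2(covered bp + 1000), Benjamini-Hochberg adjusted p of 0.05, two-sided). The higher bins had the larger differences and the longer coverage. Their median was 12.5 kb in KO against 1.0 kb in WT, and 830 of them held at least 10 kb in KO. The lower bins had a median of 3.75 kb in WT against 0.25 kb in KO, and 363 of them held at least 10 kb in WT. Both KO libraries were at 0 in 918 of the 2092 lower bins, and both WT libraries in 288 of the 1491 higher bins. In such bins the size of the difference depends on the 1000 bp added before the logarithm. Scaling changed the balance of the directions: higher bins were 41.6% of the called bins, 62.9% (2102 higher and 1239 lower) after each library was centred on its median bin, and 64.1% (1574 and 881) with one tag threshold. The median bin was 0.23 lower in KO on the log2 scale and 0.35 higher with regions of at least 1000 bp. At 6-fold over input or more 349 bins were higher and 869 lower. The counts were 970 and 1097 without KO replicate 1, 1234 and 1183 without KO replicate 2, and 1029 and 1222 without WT replicate 1.

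Higher bins sat next to each other more often than lower bins. The 1491 higher bins formed 551 runs of neighbouring bins, and 49.3% of them lay in runs of at least 5 bins. The 2092 lower bins formed 1294 runs, and 9.99% lay in runs of at least 5. These shares moved with the settings: leaving out 1 library gave 31.0 (without KO replicate 1) to 40.2% for higher and 3.03 (without WT replicate 1) to 6.42% for lower bins, a pseudocount of 100 bp 30.1 and 1.46%, and 6-fold over input 4.58 and 0.575%. The share was larger for higher bins under each of these. The longest higher run spanned 49 bins of chromosome 19 from 400001 to 5300000, with 38.0 and 32.8 kb covered per bin in KO and 0.353 and 0.982 kb in WT. It was followed by runs on chromosome 19 from 48600001 to 51400000 and from 16900001 to 19400000, on chromosome 11 from 64300001 to 66500000 with 37.1 and 30.9 kb against 0.653 and 1.5 kb, and on chromosome 16 from 1200001 to 3300000. The longest lower run spanned 13 bins of chromosome 1 from 167100001 to 168400000, with 1.11 and 0.909 kb per bin in KO and 9.39 and 7.45 kb in WT. Another, on chromosome 1 from 246000001 to 247100000, held 1.19 and 0.726 kb against 16.4 and 11.9 kb. At 6-fold over input or more the longest higher run shrank to 6 bins, and without chromosome 19 it was 21 bins. It held 21 to 26 bins when 1 of the 4 libraries was left out.

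By chromosome, 65.2% of the tested bins of chromosome 19 were higher and 1.58% lower, against 46.2 and 4.10% on chromosome 22 and 35.6 and 6.29% on chromosome 17. On chromosome 3, 8.27% were higher and 39.4% lower, on chromosome 8 5.47 and 30.8%, and on chromosome 18 1.08 and 27.6%. Chromosome 12 was balanced, with 20.1 and 20.3%.

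Of the bins named by rule, the one on chromosome 17 from 79400001 to 79500000 held 38.5 and 28.9 kb in KO and was listed at 0 in both WT libraries (log2 5.10, SE 0.31, limma adjusted p = 0.000714). The bin on chromosome 22 from 38000001 to 38100000 held 25.5 and 20.7 kb and that on chromosome 12 from 7000001 to 7100000 held 19.7 and 15 kb, again with both WT libraries at 0. On chromosome 1 from 156000001 to 156100000, KO held 41.2 and 33.6 kb and WT 0.5 kb in each library (log2 4.67, SE 0.30). All of these went from long coverage in KO to at most one smallest region per WT library. A difference against a group listed at 0 depends on the 1000 bp added before the logarithm and is not a fold.

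Among the lower bins, that on chromosome 1 from 55600001 to 55700000 held 0 and 0.5 kb in KO and 28.2 and 19.2 kb in WT (log2 −4.31, SE 0.30, limma adjusted p = 0.000714). On chromosome 7 from 77500001 to 77600000, KO held 0 and 0.5 kb and WT 23.4 and 14.4 kb (log2 −3.98, SE 0.32). On chromosome 2 from 9000001 to 9100000, KO held 0.5 and 0 kb and WT 13.9 and 14.5 kb (log2 −3.63, SE 0.38). The groups were far apart in each. The bin on chromosome 17 from 500001 to 600000, at 0 in both KO libraries and 13.1 and 11.2 kb in WT, was the least secure, with an adjusted p of 0.0182 in limma, and its call ended when any one of the 4 libraries was left out. At 6-fold over input or more, the call ended for 11 of the 20 bins named by rule, those on chromosomes 17 and 2 and that on chromosome 1 from 55600001 among them, and no difference was left in the first 100 kb of chromosome 4, while none of the 20 changed direction.

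The regions with the highest authors' fold over input were short in both sets. In all 10 named by fold, 5 per set, the input stood at the lowest value the caller uses, 0.5 tags, in both replicates, so their folds have no measured input behind them and their tags are given. Among KO-only regions, that on chromosome 15 from 41770784 to 41771486 held 9.86 and 10 tags per 10 M, that on chromosome 17 from 8365095 to 8365814 held 9.31 and 11.9, and that on chromosome 4 from 8589548 to 8590258 held 10.4 and 6.88. Among WT-only regions, that on chromosome 20 from 46277281 to 46277999 held 10.3 and 9.43 tags per 10 M, and that on chromosome 3 from 23991110 to 23991822 held 8.46 and 10.6. For comparison, the thresholds for calling a window ran from 5.89 to 7.5 tags per 10 M. Input at this floor held for 1.06 and 1.09% of KO regions and 2.21 and 1.74% of WT regions. The longest regions differed in size: 28598 bp for KO-only, on chromosome 11 from 65155479 to 65184077, and 9670 bp for WT-only, on chromosome 3 from 5191048 to 5200718. The next KO-only regions were 21668 bp on chromosome 9 from 139900710 to 139922378 and 21386 bp on chromosome 19 from 1415689 to 1437075. No gene is assigned to these positions, because an annotation of the build of the files, hg19, was not used here.

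Regions called in all 4 libraries were wider in KO. Their mean width was 2368 and 2065 bp in KO and 1433 and 1363 bp in WT (exact permutation p = 0.333, two-sided, the smallest possible). Both KO widths were above both WT widths at 898 of the 2404 regions (37.4%), and both were below at 422 (17.6%). On chromosome 19 these counts were 69 and 4 of 90, on chromosome 17 70 and 6 of 134, and on chromosome 16 62 and 9 of 125. On chromosome 21 they were 27 and 47 of 104 and on chromosome 5 18 and 39 of 113. Chromosomes with more WT-only than KO-only regions went either way, since on chromosome 1 the counts were 136 and 57 of 341, on chromosome 6 94 and 58 of 302, and on chromosome 10 32 and 18 of 118.

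Distance from the chromosome ends also separated the genotypes. Within 200 kb of an end lay 0.806 and 0.825% of the covered length in KO and 2.0 and 2.04% in WT. From 1 to 5 Mb the shares were 17.7 and 17.5% in KO and 7.34 and 8.70% in WT, and from 5 to 20 Mb 29.1 and 28.7% against 22.5 and 23.9%. Beyond 20 Mb they were 46.2 and 46.8% in KO and 62.7 and 59.0% in WT. The lower KO share beyond 20 Mb was not a lower length: covered length there was 19.6 and 16.1 Mb in KO and 19.6 and 14.6 Mb in WT, and the groups overlapped. From 1 to 5 Mb the length was 7.47 and 6.02 Mb in KO and 2.30 and 2.15 Mb in WT, and from 5 to 20 Mb 12.3 and 9.86 Mb against 7.06 and 5.91 Mb. Within 200 kb it was 0.341 and 0.283 Mb in KO and 0.627 and 0.505 Mb in WT, so there the length was lower in KO too. From 200 kb to 1 Mb the shares were 6.21 and 6.09% in KO and 5.41 and 6.43% in WT, and the groups overlapped. Each separated class had an exact permutation p of 0.333, two-sided, the smallest possible.

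Chromosome 19 carried part of this pattern. Without it, the share from 5 to 20 Mb turned to 1.49 percentage points lower in KO, from 5.71 points higher, and the difference beyond 20 Mb shrank from −14.3 to −6.13 points. Among the specific regions, 19.7% of KO-only and 7.34% of WT-only regions lay 1 to 5 Mb from an end, and 0.372 and 1.49% within 200 kb.

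**Figure D4:**
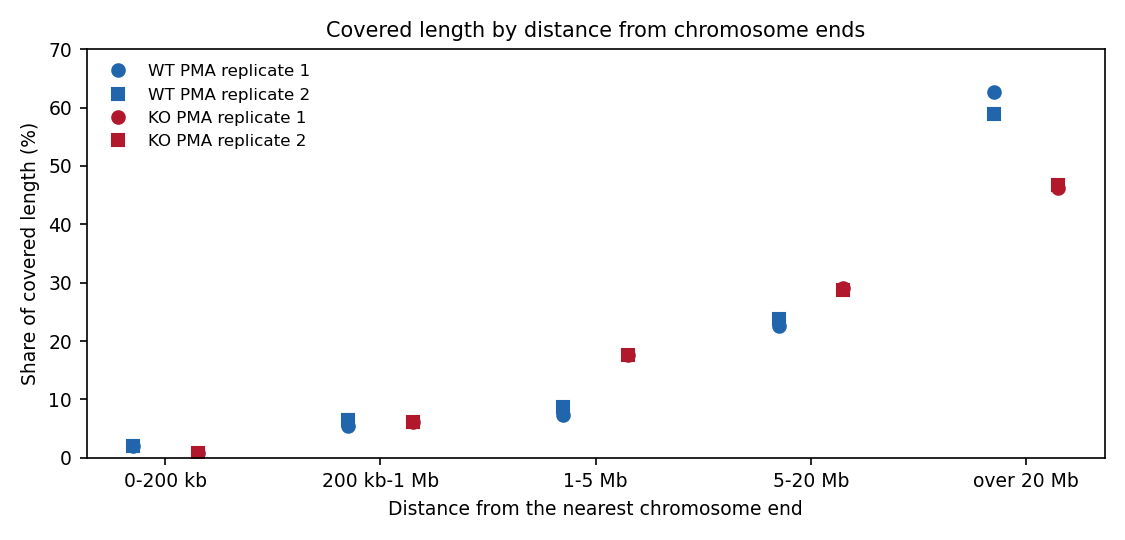
Share of covered length (%) in 5 classes of distance from the nearest chromosome end, each point 1 library of KO or WT cells after PMA. KO libraries lie above WT libraries from 1 to 5 Mb (17.7 and 17.5% against 7.34 and 8.70%) and below them within 200 kb and beyond 20 Mb.

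The mock-treated libraries were not used to choose the sets, although they share the cell lines and the input with them. Of the KO-only regions, 33.5 and 34.3% were also called in the KO mock libraries and 4.03 and 6.39% in the WT mock libraries. Of the WT-only regions, 5.90 and 4.74% were called in KO mock and 15.2 and 9.90% in WT mock. Over all merged regions, the background was 11.7 and 11.4% in KO mock and 6.01 and 5.22% in WT mock. KO-only regions were thus called more often in KO mock cells, and WT-only regions more often in WT mock cells, than merged regions at large. The background is not matched for size: medians were 1251 and 955 bp in the sets, and 500 bp in merged regions of other combinations. A longer region has more room to overlap a mock region. Regions called in all 4 PMA libraries stood above both sets, at 56.5 and 54.2% in KO mock and 29.2 and 30.9% in WT mock. A share above the background was therefore not particular to the genotype-specific sets. With 2 libraries against 2, each comparison had an exact permutation p of 0.333 (two-sided, the smallest possible), at means of 33.9% ± 0.586 and 5.21% ± 1.67 for KO-only and 5.32% ± 0.823 and 12.5% ± 3.72 for WT-only regions (SD, n = 2). The log2 ratio of KO mock to WT mock was 2.70 for KO-only and −1.24 for WT-only regions. The latter was −0.42 with one tag threshold and −0.54 without WT PMA replicate 1.

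Size moved with these shares. KO-only regions of at least 2 kb were called in KO mock in 58.0 and 59.2% of cases and in WT mock in 5.51 and 10.9%, and those under 1 kb in 18.2% in each KO mock library and in 3.07 and 3.58%. WT-only regions of at least 2 kb were called in WT mock in 32.0 and 24.0% and in KO mock in 10.3 and 8.46%. Those under 1 kb were called in WT mock in 10.7 and 6.16% and in KO mock in 4.87 and 3.89%. In WT mock replicate 2 the share of these short WT-only regions was near the background of 5.22%. On chromosome 19, KO-only regions were called in KO mock in 38.0 and 39.1% and in WT mock in 1.79 and 3.98%. Called in both KO mock libraries and in neither WT mock library were 1518 KO-only regions (16.1%) and 52 WT-only regions (0.841%). The opposite combination held for 203 WT-only (3.28%) and 21 KO-only regions (0.223%). Most KO-only regions were not called in a given KO mock library, and the mock lists were shorter, with 24341 and 23884 regions in KO and 14062 and 11690 in WT.

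**Figure D5:**
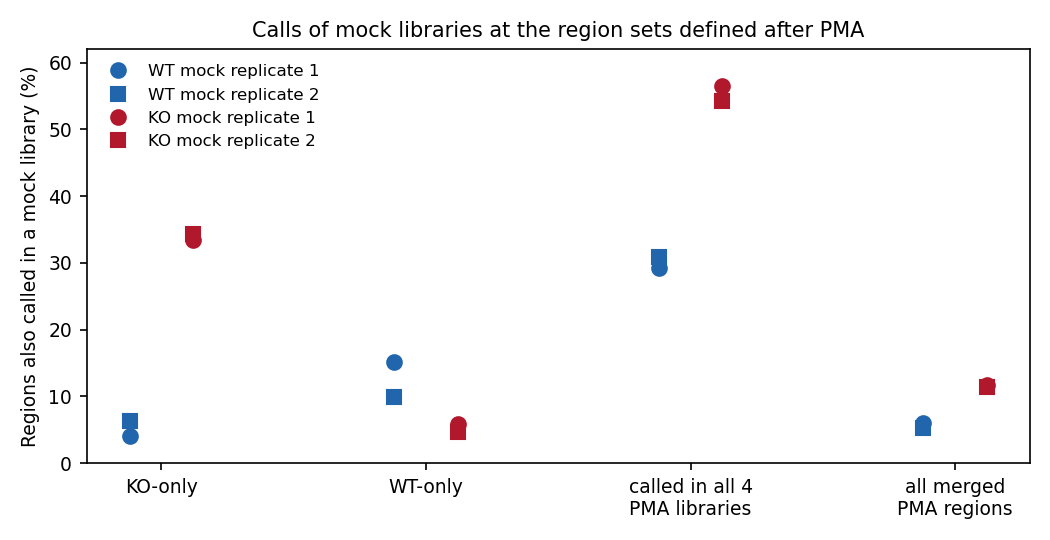
Share of KO-only regions, WT-only regions, regions called in all 4 PMA libraries and all merged regions (%) that were also called in each mock-treated library, each point 1 library. KO-only regions stand at 33.5 and 34.3% in KO mock against 4.03 and 6.39% in WT mock, and WT-only regions at 5.90 and 4.74% against 15.2 and 9.90%.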

How the data were processed

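γH2AX ChIP-seq regions of 4 libraries (KO and WT after PMA, 2 each) were analysed on chromosomes 1 to 22, with 4 mock libraries as a reference. CASAVA 1.4, BWA and HOMER were used on build hg19, per the submitters' processing notes. In each library the authors called regions, per the file headers, on 500-bp windows at 2-fold over a single WT mock input, with a p of 0.001 for the tag threshold and 0.0001 against input. The deposited signal is tags per 10 M, with input tags in the same region. The deposited count is tags per region, the deposited ratio is the authors' fold over input, the deposited score is HOMER's, and the deposited p-value of a region comes from HOMER. Folds, scores and p-values served only within a list, for description, ranking and filtering.

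Merged regions shared at least 1 bp. Chromosome ends were the last position called in any library, and for 5 acrocentric chromosomes only the long-arm end was used. Covered length per 100-kb bin, in bins covered in at least 2 of 8 libraries, was tested with limma 3.58.1 (R 4.3.3, trend) as log2(bp + 1000), in 1 fit with 4 groups, and the procedure was tested on simulated data. Library values were compared by exact permutation tests with 6 labellings. Python 3.11.15, numpy 2.4.6, pandas 2.3.3, scipy 1.17.1 and matplotlib 3.10.9 were used. Named bins were the 10 called bins of each direction that changed most, at most 1 per chromosome, named runs the 5 longest in each direction, and named regions the 5 with the highest lower fold, at most 1 per chromosome, and the 3 longest. Members, lists and rules were chosen with earlier results of these data known. The RefSeq tables are of another build (GRCh38.p14) and served only for gene numbers and promoter GC content per chromosome. Gene lists, gene context, GC correction per bin, centromere distance and sequences need hg19 and were not used here.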

Additional observations from a re-analysis of the deposited data

Results flagged for a closer look

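For 12 of the 20 named bins the genotype difference after PMA differed from that under mock (limma interaction term, adjusted p of 0.05, log2 scale). Among bins higher in KO, the difference after PMA exceeded that under mock by 2.54 on chromosome 9 (from 139800001), 2.22 on chromosome 11 (from 67200001), 1.95 on chromosome 17 (from 79400001), 3.98 on chromosome 1 (from 156000001), 3.33 on chromosome 22 (from 38000001), 2.73 on chromosome 12 (from 7000001) and 2.38 on chromosome 6 (from 43900001). The bin on chromosome 22 held 1.85 and 2 kb in KO mock and 0.5 and 0 kb in WT mock. Other bins were already far apart under mock. The bin on chromosome 17 held 14.3 and 18.3 kb in KO mock and 0.5 and 1.5 kb in WT mock. The bin on chromosome 9 held 10.9 and 12.6 kb against 0 and 0.5 kb, and that on chromosome 11 held 8.99 and 12.3 kb against 0.5 and 0 kb. Among bins lower in KO, it was −4.31 on chromosome 1 (from 55600001), −2.98 on chromosome 7 (from 77500001), −3.47 on chromosome 21 (from 30700001), −4.29 on chromosome 2 (from 9000001) and −2.92 on chromosome 10 (from 1100001). The bin on chromosome 1 from 55600001 was listed at 0 in all 4 mock libraries. Of all 9474 tested bins, 1549 passed this interaction test. The 20 bins were picked for their difference after PMA, which enters the interaction.

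Outside chromosomes 1 to 22, chromosome X was covered over 224 and 168 kb in KO (mean 196) and 36.7 and 31.8 kb in WT after PMA, against 50 and 63.1 kb in KO mock and 15.7 and 14.8 kb in WT mock. Tags in mitochondrial regions stood at 2892 and 2986 per 10 M in KO after PMA (mean 2940), 0 and 25.9 in WT after PMA, and 0 in the 4 mock libraries. Only tags inside called regions are counted, so 0 means that no mitochondrial region was called. The called mitochondrial length was 16476 and 16493 bp in KO and 0 and 500 bp in WT after PMA. The source of these tags was not tested.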

How the results depend on the processing

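Counts of bins (higher and lower in KO, 1491 and 2092) were 1027 and 1230 with a pseudocount of 100 bp, 1063 and 1085 with the 4 PMA libraries alone, 2102 and 1239 after centring, 487 and 1037 with 500-kb bins, 349 and 869 at 6-fold over input, 1574 and 881 with one tag threshold, and 1151 and 790 with regions of at least 1000 bp. Leaving out 1 library gave 970 to 1234 higher and 1097 to 1886 lower bins. Covered length reversed to −0.52 (log2) at 6-fold. KO-only regions numbered 720 at 6-fold and 3646 with at least 1000 bp, and WT-only regions 1097, 894 and, with one tag threshold, 1652. Leaving out 1 library, which also drops a condition of the rule, gave 11062 to 30638 KO-only and 7365 to 31481 WT-only regions. The share from 200 kb to 1 Mb of an end differed by −0.028 points at 6-fold, −1.01 with one tag threshold, −2.53 with at least 1000 bp and −0.28 to 0.74 without 1 library. The share from 5 to 20 Mb turned to −1.49 without chromosome 19, an alternative added after seeing the data. The difference in median region size was 0 at 6-fold and without chromosome 19 and 0 to 126 bp without 1 library, and that in the share of 500-bp regions was 0 with at least 1000 bp, which removes them. The cause of the other changes was not tested.

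No pairing by replicate number was seen between the PMA groups: deviations of KO and WT replicate 1 from their group means correlated at −0.058 over 9474 bins. This value cannot tell whether the libraries were handled as pairs. With the replicate number as a block, 1408 bins were higher and 1990 lower. The gene-level test, gene context and GC correction were not run, since hg19 sequence and annotation were not used here.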
